A study of Homo sapiens with 2 samples.

Results

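The nuclear genes for the subunits of respiratory complexes I to IV were compared between A549 cells in spheroid culture and A549 cells in monolayer culture. They were taken by symbol: names starting with NDUFA, NDUFB, NDUFC, NDUFS, NDUFV, UQCR, COX4I, COX5, COX6, COX7 or COX8, together with SDHA, SDHB, SDHC, SDHD and CYC1, without assembly factors, pseudogenes and antisense names. By this rule 60 of the 19775 genes on the array were found, on 114 of its 54675 probe sets, with 33 genes for complex I, 3 for complex II, 7 for complex III and 17 for complex IV. A further 5 subunit genes (NDUFC2, NDUFS5, NDUFS8, UQCRH and UQCRHL) were annotated only on probe sets shared by several genes and were given no value, and SDHB and UQCRFS1 were not analysed here.

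The spheroid sample was A549 cells, a human lung adenocarcinoma line, kept in suspension for 12 days in DMEM/F12 without serum, to which N2 supplement, EGF at 20 ng/ml and bFGF at 10 ng/ml were added. The monolayer sample was the same line, grown adherent for 12 days in DMEM with 10% FBS. Adhesion, basal medium, serum and growth factors therefore differed together between the samples, and their effects cannot be told apart. Total RNA of each culture was measured on 1 Affymetrix U133 Plus 2.0 array, so that no difference below has a replicate check, and no test, p-value or error could be given. The cell line label and titles of both samples name A549 and the media, whereas their free description names a hepatoma line. All 8 epithelial markers checked for A549 were above the floor on both arrays, with 4 higher and 4 lower in spheroid culture. On their brightest probe sets, KRT7 was 3.75-fold lower and KRT19 4.64-fold higher. Whether these markers tell A549 from a hepatoma line was not tested. Of 8 hepatoma markers, 3 were above the floor on both arrays and TTR and TF on neither, with a summed signal of 7075 in spheroid culture and 1420 in monolayer culture. Most of the spheroid sum was ALB, albumin, at 4639 in spheroid culture and 23.4 in monolayer culture, and the part of these genes in the results below was not tested. Fibroblast, endothelial, leukocyte and muscle markers had 2 of 6, 1 of 4, 2 of 4 and 1 of 5 measured genes above the floor on both arrays.

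The respiratory chain sits in the inner mitochondrial membrane and passes electrons to oxygen. Complex I takes them from NADH and complex II from succinate, both hand them to ubiquinone, complex III passes them on to cytochrome c and complex IV gives them to oxygen, while complexes I, III and IV pump protons that drive ATP synthase. Most subunits are encoded in the nucleus, made in the cytosol and imported, and a few core subunits are encoded by mitochondrial DNA. Several complex IV subunits exist as isoforms whose use depends on tissue and oxygen.

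Subunit signals in spheroid culture were mostly a little below those in monolayer culture, and none differed by 3-fold. A gene was counted as measured if its signal exceeded the floor, the median probe set of its array (119 in spheroid culture, 108 in monolayer culture), on at least 1 array. This held for 56 of the 60 genes, 55 of them on both arrays. The limit of 3-fold was passed by 0 genes upward and 0 downward in spheroid culture, beside 2.34% (higher) and 2.11% (lower) of the 13229 genes measured. At 1.5-fold, 2 were higher (NDUFB3 and COX4I2) and 6 lower (CYC1, NDUFA9, NDUFS6, COX7A2L, NDUFS7 and NDUFB7), where 16.9% of all measured genes were higher and 13.5% lower. These counts were 1 higher and 10 lower once the arrays had been scaled to equal medians, and 2 higher and 5 lower after quantile normalization. By any amount, 16 were higher and 40 lower, or 71.4% lower, against 52.8% of all genes higher and 47.2% lower. The 40 became 45 on scaling to equal medians and 37 after quantile normalization. In a bulk RNA sample, fewer cells with a transcript and less of it per cell cannot be told apart.

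The median log2 ratio of the 56 genes, spheroid over monolayer, was -0.15 (quartiles -0.38 and 0.05), against 0.04 for all measured genes. Scaling to equal medians moved these to -0.29 and -0.10, and quantile normalization to -0.09 and -0.00053, so that the members' median stayed the lower in both. The median was -0.15 for complex I (22 of 33 lower), -0.29 for complex II (2 of 3), -0.16 for complex III (6 of 7) and -0.14 for complex IV (10 of 13). Of the 56 genes, 48 lay within 1.5-fold, a limit passed by 16.9% of all measured genes upward and 13.5% downward. Within 1.2-fold lay 30, and the share of all genes there was not computed. The robust SD of the log2 ratios was 0.341 for the members against 0.531 for all genes above both floors. The latter include many dimmer genes, whereas 38 members were in the brightest decile of signal, and the spread at like signal was not computed. Of the 60 genes, 10 were on chromosome 19, 6 on chromosome 5 and at most 5 on any other chromosome. The share of all genes of the array on each chromosome was not computed.

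**Figure D1:**
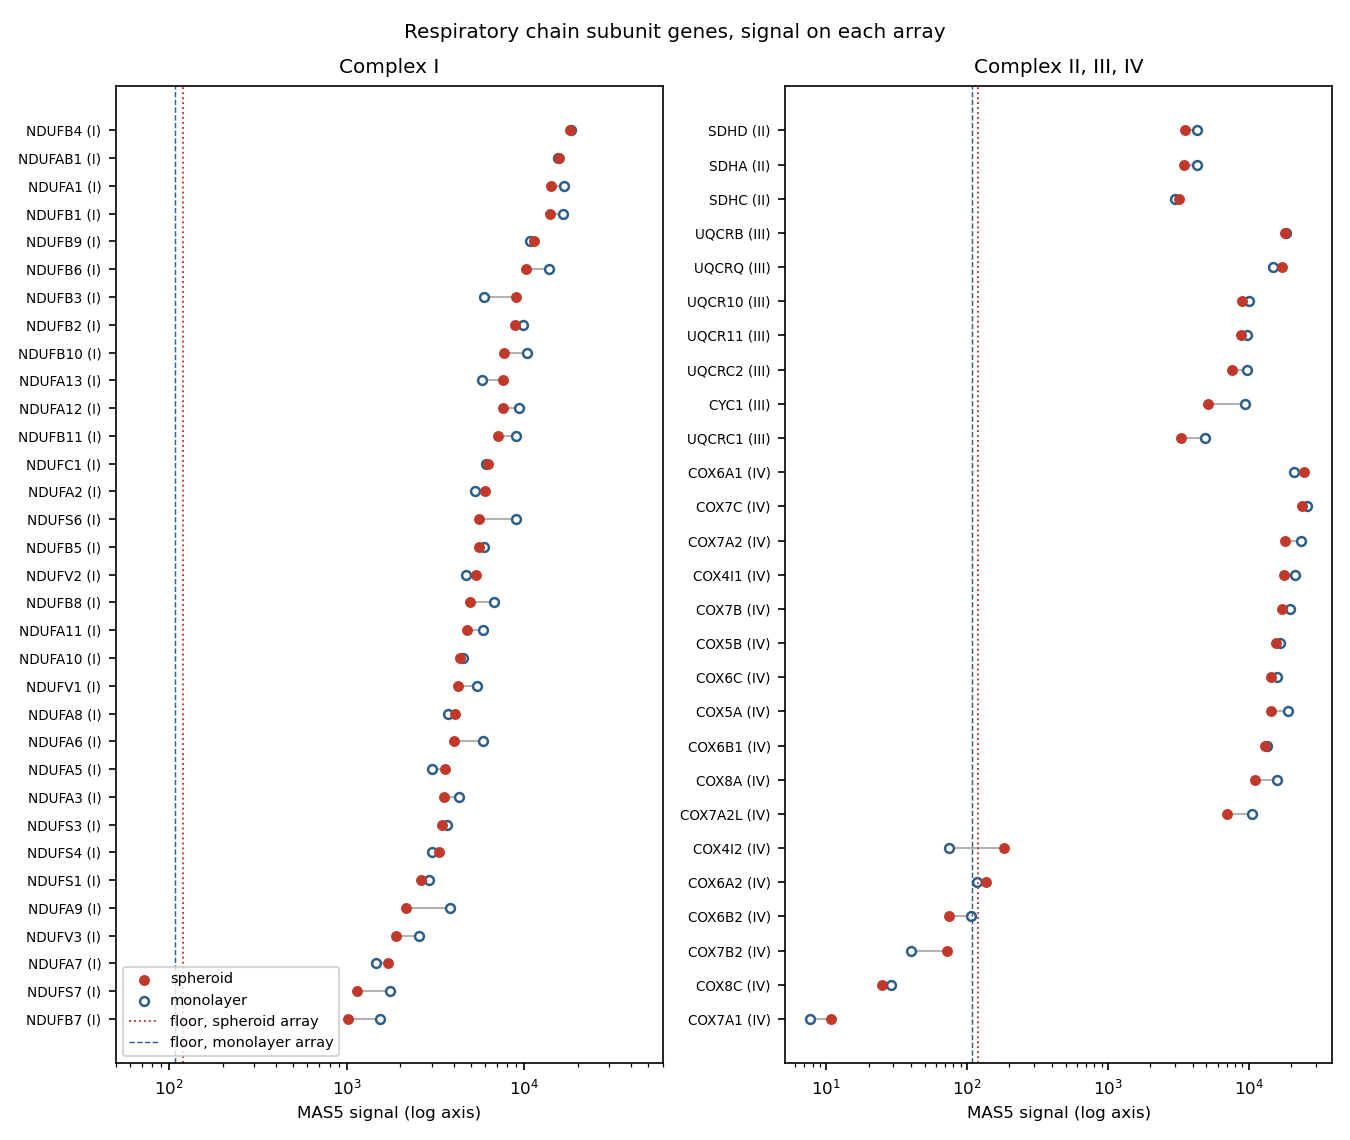
Signal of each of the 60 subunit genes on the spheroid array (filled circles) and the monolayer array (open circles), on a log axis, with complex I on the left and complexes II to IV on the right; dotted and dashed lines mark the floors. Most pairs lie close together, CYC1, NDUFA9 and NDUFS6 have the widest shifts to lower spheroid signal, and 4 complex IV isoform genes lie below the floor of both arrays.

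Most subunit genes gave bright signals, and the bright genes of the array as a whole were also lower in spheroid culture. Of the 11528 genes above both floors, the brightest decile held 38 members, 29 of them lower, with a median of -0.17. All 1153 genes of that decile had a median of -0.09, and 58.3% of them were lower. In the decile below it, the 12 members had a median of -0.13 and 8 were lower, against a median of -0.05 and 53.7% lower for all its genes. At the dim end, the 2 lowest deciles had medians of 0.11 and 0.16 over all genes. How much of the members' shift goes with signal strength was not tested beyond these values.

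**Figure D2:**
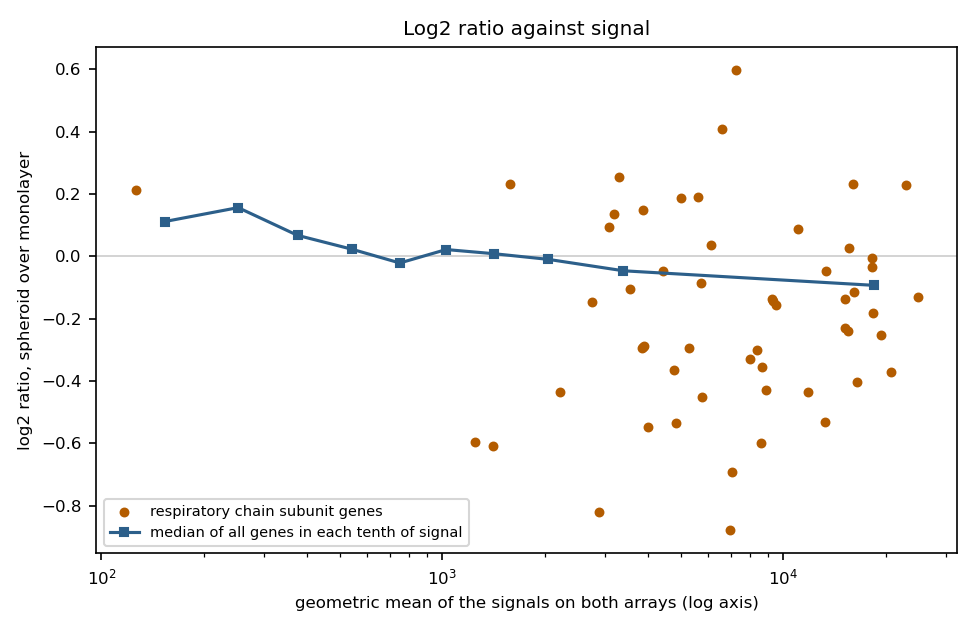
Log2 ratio, spheroid over monolayer, against the geometric mean signal of both arrays on a log axis; points are subunit genes above both floors and squares joined by a line are the median of all genes in each decile of signal. The line runs from 0.11 and 0.16 in the 2 dimmest deciles to -0.09 in the brightest, where 29 of the 38 subunit genes lie below 0.

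In complex I, the genes farthest apart between the cultures belonged to different places in the L-shaped enzyme. NDUFA9, an accessory subunit where the peripheral arm meets the membrane arm, had a signal of 2166 in spheroid culture and 3823 in monolayer culture, a log2 ratio of -0.82 or 1.77-fold lower. NDUFS6, a zinc-binding accessory subunit of the NADH-oxidising module, had 5570 in spheroid culture and 8992 in monolayer culture (log2 ratio -0.69). NDUFS7, the core subunit with the iron-sulfur cluster that passes electrons to ubiquinone, had 1141 in spheroid culture and 1741 in monolayer culture (log2 ratio -0.61). Each of these 3 genes was lower on its only probe set above both floors. NDUFB7, in the distal membrane arm, had 1011 in spheroid culture and 1528 in monolayer culture (log2 ratio -0.60), but its other probe set, with 137 in spheroid culture and 83.8, below the floor, in monolayer culture, gave 0.34. That set was used when sets of the _s_at and _x_at types, which can match several transcripts, were left out. NDUFA6, a small accessory subunit that binds the acyl carrier protein, had 4009 in spheroid culture and 5812 in monolayer culture (log2 ratio -0.54).

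A few complex I genes were on the other side. NDUFB3, a small subunit of the distal membrane arm, had a signal of 8924 in spheroid culture and 5897 in monolayer culture, 1.51-fold higher. NDUFA13, a membrane arm subunit also known as GRIM-19, had 7624 in spheroid culture and 5740 in monolayer culture (log2 ratio 0.41). NDUFA5, of the peripheral arm, had 3586 in spheroid culture and 3007 in monolayer culture (log2 ratio 0.25). Smaller positive ratios were found for NDUFA7 (log2 ratio 0.23) and NDUFA2 (log2 ratio 0.19). These accessory subunits stood beside neighbours that were lower, so that no arm of the enzyme was on 1 side as a whole.

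The core subunits, most of which carry the flavin or an iron-sulfur cluster, ranged from NDUFS7 at -0.61 to NDUFV2 at 0.19. NDUFV1, which binds NADH and the flavin, had a signal of 4211 in spheroid culture and 5422 in monolayer culture (log2 ratio -0.36). NDUFV2, its partner with an iron-sulfur cluster, was on the other side, with 5349 in spheroid culture and 4696 in monolayer culture. NDUFS3 had 3421 in spheroid culture and 3683 in monolayer culture (log2 ratio -0.11). NDUFS1, the largest core subunit of the peripheral arm, had 2607 in spheroid culture and 2889 in monolayer culture (log2 ratio -0.15). Its ratio became 0.25 when all 5 of its probe sets, of which 3 were above both floors, were averaged as a geometric mean. Of the 5 core genes measured, 4 were lower (median -0.15), and of the 28 accessory genes 18 were lower (median -0.19). By position, 6 of 10 genes of the NADH-oxidising module, 2 of 3 of the ubiquinone-binding module, 5 of 8 of the proximal membrane arm and 9 of 12 of the distal membrane arm were lower. The remaining complex I genes lay between log2 ratios of -0.45 (NDUFB8) and 0.15 (NDUFA8), and NDUFB4 was nearest to equal, at 18151 in spheroid culture and 18226 in monolayer culture (log2 ratio 0.59 without the _s_at and _x_at sets).

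Promoter sequences of 49 of the 56 measured genes were found in the RefSeq table for GRCh38.p14, which gives 250 bases before and 50 bases after each start. The 150 bases before the start are shown for the 3 lowest and the 2 highest complex I genes, since these are the genes on which the contrast within the complex rests. Capitals mark matches to the NRF1 motif GCATGCGC or the ETS motif CCGGAAG (the site type bound by GABP, or NRF2), on either strand. Both factors are known regulators of respiratory chain genes.
NDUFA9, chr12:4648964-4649113 (+): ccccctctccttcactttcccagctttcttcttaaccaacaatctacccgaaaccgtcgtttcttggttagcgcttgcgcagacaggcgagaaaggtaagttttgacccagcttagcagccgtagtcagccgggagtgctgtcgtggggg
NDUFS6, chr5:1801257-1801406 (+): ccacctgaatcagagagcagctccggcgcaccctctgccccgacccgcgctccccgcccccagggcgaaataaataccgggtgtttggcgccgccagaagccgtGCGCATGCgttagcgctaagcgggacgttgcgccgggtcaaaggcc
NDUFS7, chr19:1383757-1383906 (+): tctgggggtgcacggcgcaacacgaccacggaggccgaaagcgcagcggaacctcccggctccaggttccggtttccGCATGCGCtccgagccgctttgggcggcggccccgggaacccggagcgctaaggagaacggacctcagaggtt
NDUFB3, chr2:201071851-201072000 (+): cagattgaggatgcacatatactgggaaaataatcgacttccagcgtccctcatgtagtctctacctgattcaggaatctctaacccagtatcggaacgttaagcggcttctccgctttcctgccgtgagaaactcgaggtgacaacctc
NDUFA13, chr19:19516075-19516224 (+): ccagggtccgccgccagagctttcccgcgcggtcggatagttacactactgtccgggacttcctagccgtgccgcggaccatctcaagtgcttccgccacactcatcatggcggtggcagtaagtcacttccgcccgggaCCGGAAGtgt

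The low genes NDUFS6 and NDUFS7 each held an NRF1 motif, with its first base 46 and 73 bases before the start. The high gene NDUFA13 held an ETS motif 10 bases before the start, and neither motif was found in the 150 bases of NDUFA9 or NDUFB3. Over the whole 300 bases, the NRF1 motif was found in 8 of the 49 promoters (16.3%), against 4.26% of 15843 promoters of protein-coding genes. The ETS motif was found in 13 (26.5%, against 14.2%). A YY1 motif, AAGATGGC, was found in 7 (14.3%, against 3.91%), and in 0 of them did it lie wholly before the start. The hypoxia response core ACGTGC was found in 6 (12.2%, against 7.76%). Motif matches lay on both sides of the ratio: 6 of the 8 genes with the NRF1 motif and 10 of the 13 with the ETS motif were lower in spheroid culture. The same held for 5 of the 7 genes with the YY1 motif and 5 of the 6 with the hypoxia response core. Among all 56 measured members, 71.4% were lower. The last letters of the ETS motif, AAG, are the first of the YY1 motif, and 0 of the 49 promoters held both. A match describes the sequence only.

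Complex II, the succinate dehydrogenase that also belongs to the citric acid cycle, was measured through 3 subunits. SDHA, the flavoprotein that oxidises succinate, had a signal of 3470 in spheroid culture and 4258 in monolayer culture (log2 ratio -0.30). SDHD, a membrane anchor, had 3497 in spheroid culture and 4281 in monolayer culture (log2 ratio -0.29). SDHC, the other anchor, had 3174 in spheroid culture and 2974 in monolayer culture (log2 ratio 0.09), and 4 of its 6 probe sets above both floors were higher and 2 lower; its ratio turned to -0.05 on scaling to equal medians.

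Complex III held the lowest ratio of all members. CYC1, cytochrome c1, which passes electrons to cytochrome c, had a signal of 5143 in spheroid culture and 9464 in monolayer culture, 1.84-fold lower on its only probe set. UQCRC1, a core protein on the matrix side, had 3317 in spheroid culture and 4848 in monolayer culture (log2 ratio -0.55). UQCRC2, its partner core protein, had 7638 in spheroid culture and 9768 in monolayer culture (log2 ratio -0.35). On their brightest probe sets, these 3 large subunits were the lowest of the complex. The small subunits UQCR10, UQCR11 and UQCRB lay closer to equal there, with log2 ratios of -0.16, -0.14 and -0.04. This order depended on the probe sets used. Without the _s_at and _x_at sets, UQCR10 was at 0.65 and UQCRB at 0.31, but UQCR11 was at -1.15, the lowest of the complex. That UQCR11 set had 109 in spheroid culture, below the floor, and 264 in monolayer culture. Averaging the UQCR11 sets gave -0.64, below UQCRC1. UQCRQ, another small subunit, was on the other side, with 17297 in spheroid culture and 14737 in monolayer culture (log2 ratio 0.23).

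In complex IV, the ubiquitous subunits were bright on both arrays. COX7A2L, which also helps join complexes III and IV into supercomplexes, had a signal of 6967 in spheroid culture and 10565 in monolayer culture (log2 ratio -0.60). COX8A had 10999 in spheroid culture and 15903 in monolayer culture (log2 ratio -0.53). COX5A had 14257 in spheroid culture and 18870 in monolayer culture (log2 ratio -0.40). These were the 3 lowest of the complex, and COX7A2 followed at 18208 in spheroid culture and 23561 in monolayer culture (log2 ratio -0.37). COX4I1, COX7B and COX6B1 had log2 ratios of -0.25, -0.18 and -0.05, and each changed sign in 1 alternative: COX4I1 to 0.20 without the _s_at and _x_at sets, COX7B to 0.28 on averaging its sets and COX6B1 to 0.02 after quantile normalization. COX6A1 was higher, at 24690 in spheroid culture and 21076 in monolayer culture (log2 ratio 0.23).

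The tissue isoforms of complex IV were at or near the floor. COX4I2, the isoform of lung and of low oxygen, had a signal of 182 in spheroid culture and 74.96 in monolayer culture, on its only probe set. In monolayer culture it was below the floor, so that it was at least 1.68-fold higher in the deposited scaling. The floored log2 ratio of 0.75 became 0.61 on scaling to equal medians and 0.62 after quantile normalization. COX6A2, the heart and muscle isoform, had 136 in spheroid culture and 117 in monolayer culture (log2 ratio 0.21). COX7A1, also of heart and muscle, and COX6B2, COX7B2 and COX8C, known from testis, were below the floor on both arrays. Their ubiquitous counterparts were measured far above it on each array. NDUFA4 and its isoform NDUFA4L2 are annotated under the newer symbols COXFA4 and COXFA4L2 and so fell outside the rule. COXFA4 had 14424 in spheroid culture and 17361 in monolayer culture (log2 ratio -0.27), and COXFA4L2 was below the floor on both.

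Where a gene had several probe sets above both floors, they often differed in direction. This could be examined for 17 members, and in 7 of them all sets lay on the same side. The brightest set, which stands for the gene here, was lower in spheroid culture for 15 of the 17, whereas the dimmest set was higher for 9. The dimmest set had the higher ratio in 14 of 17 genes (82.4%), with a median difference of 0.35, against 50.4% and 0.0041 over all 5453 such genes of the array. The widest gaps were in NDUFB8, COX7B and UQCR10. The brightest NDUFB8 set had 4931 in spheroid culture and 6739 in monolayer culture (log2 ratio -0.45), and the dimmest had 494 in spheroid culture and 302 in monolayer culture (log2 ratio 0.71). The dimmest COX7B set had 700 in spheroid culture and 420 in monolayer culture (log2 ratio 0.74), and that of UQCR10 had 896 in spheroid culture and 573 in monolayer culture (log2 ratio 0.65). The dimmest set was the lower in NDUFC1, COX7C and NDUFB2. What the dim sets detect was not tested. The control ratio of 3′ over 5′ signal, a measure of RNA integrity, was 1.99 in spheroid culture and 1.55 in monolayer culture for ACTB, and 1.15 in spheroid culture and 1.09 in monolayer culture for GAPDH, and its part in the differences was not tested.

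**Figure D3:**
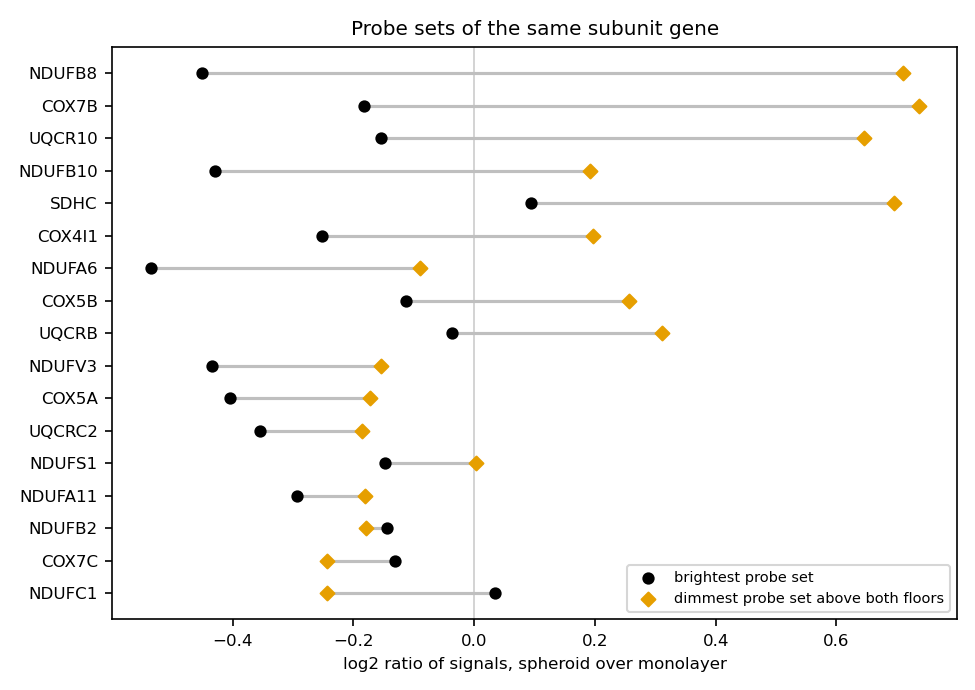
Log2 ratio, spheroid over monolayer, of the brightest (circles) and the dimmest (diamonds) probe set above both floors, for the 17 subunit genes with at least 2 such sets. In 14 of the 17 genes the diamond lies to the right of the circle, by 1.16 log2 units in NDUFB8 and 0.92 in COX7B.

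Genes that work with the subunits were counted in the same way. Of the 13 subunits encoded by mitochondrial DNA, 7 were measured, with 2 higher and 5 lower and a median log2 ratio of -0.09 that became 0.0017 after quantile normalization. They include the highest signal of each array, COX2 at 71935.5 in spheroid culture and ND4 at 76362.3 in monolayer culture. Whether signals this high limit the ratios was not tested. ATP synthase, which uses the proton gradient, had 2 of 18 measured genes higher and 16 lower (18 lower on scaling to equal medians, 14 after quantile normalization), with a median of -0.37. At 1.5-fold, 0 were higher and 3 lower. Its median was -0.04 without the _s_at and _x_at sets. Assembly factors of complex I were higher in 4 and lower in 16 of 20 genes (median -0.16), those of complex II in 1 and 3 of 4 (median -0.55, or -0.17 over the 3 genes above a floor at the 75th percentile), those of complex III in 1 and 8 of 9 (median -0.28), and those of complex IV in 12 and 13 of 25 (median -0.09). ECSIT, an assembly factor of complex I, had 344 in spheroid culture and 667 in monolayer culture (log2 ratio -0.95, or -0.44 with the floor at the 75th percentile). SDHAF4, which assists the assembly of SDHA, had 205 in spheroid culture and 401 in monolayer culture (log2 ratio -0.96). COX20, which helps mature COX2 of complex IV, was on the other side, with 2635 in spheroid culture and 1613 in monolayer culture (log2 ratio 0.71), and COA3 had 10731 in spheroid culture and 6899 in monolayer culture (log2 ratio 0.64).

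Enzymes that feed electrons to ubiquinone without complex I or II were mostly higher in spheroid culture. Of 8 such genes, 7 were higher and 1 lower (2 lower on scaling to equal medians), with a median of 0.52 that was 0.29 without the _s_at and _x_at sets. At 1.5-fold 4 were higher and 0 lower, and 1 of them passed 3-fold. PRODH, proline dehydrogenase, had a signal of 1064 in spheroid culture and 125 in monolayer culture, 8.54-fold higher; it was within 3-fold when the floor was set at the 75th percentile of each array. SQOR, which oxidises sulfide, had 7833 in spheroid culture and 3878 in monolayer culture (2.02-fold higher). ETFDH, which takes electrons from fatty acid oxidation, had 467 in spheroid culture and 274 in monolayer culture (1.70-fold higher). The lower gene was DHODH, the pyrimidine synthesis enzyme, with 269 in spheroid culture and 385 in monolayer culture (log2 ratio -0.52). The electron carriers themselves, as cytochrome c and ubiquinone synthesis genes, were higher in 6 and lower in 9 of 15 genes (median -0.08). COQ2, which joins the ring and tail of ubiquinone, had 580 in spheroid culture and 1551 in monolayer culture, 2.68-fold lower, although its other probe set had a log2 ratio of -0.08.

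Genes of the citric acid cycle, which supplies NADH and succinate, were counted together with PDHA1, PDHB, DLAT and PDHX of pyruvate dehydrogenase and with PC, pyruvate carboxylase. Of these 17 genes, 6 were higher and 11 lower (median -0.09). IDH2, the mitochondrial NADP-dependent isocitrate dehydrogenase, had a signal of 535 in spheroid culture and 2211 in monolayer culture, 4.13-fold lower, and was within 3-fold, at a log2 ratio of -1.44, when its 2 probe sets were averaged. SUCLG2, a subunit of succinyl-CoA ligase, had 2500 in spheroid culture and 4944 in monolayer culture (log2 ratio -0.98). OGDH, of the 2-oxoglutarate dehydrogenase complex, was on the other side, with 1308 in spheroid culture and 728 in monolayer culture (log2 ratio 0.85).

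Genes that make and maintain mitochondria had more members lower than higher. Of 21 genes for mitochondrial transcription and its nuclear regulators, 4 were higher and 17 lower (median -0.21). With the geometric mean of probe sets 12 of the 21 were lower (median -0.04), and without the _s_at and _x_at sets 11 of 16 (median -0.10). The geometric mean also averages probe sets below both floors. TFAM, which packs mitochondrial DNA and starts its transcription, had a signal of 1376 in spheroid culture and 2434 in monolayer culture (log2 ratio -0.82), and all 4 of its probe sets were lower. POLRMT, the mitochondrial RNA polymerase, had 806 in spheroid culture and 1416 in monolayer culture (log2 ratio -0.81). This was 1 of its 3 probe sets and the only one above the floor of an array. The geometric mean of all 3 gave -0.18. GABPB1, a subunit of the ETS factor GABP, had 456 in spheroid culture and 844 in monolayer culture (log2 ratio -0.89). A further list held genes for protein import, the outer membrane and carriers, and also HSPD1, TUFM, PHB1, PHB2, IMMT and CHCHD3, which have other roles in mitochondria. Of its 18 measured genes, 0 were higher and 18 lower, with a median of -0.44. The 18 lower became 17 after quantile normalization, 15 with the geometric mean, and 10 of 13 without the _s_at and _x_at sets. TIMM44, which links the import motor to the inner membrane, had 362 in spheroid culture and 1057 in monolayer culture (log2 ratio -1.55), and VDAC2, an outer membrane channel, had 13583 in spheroid culture and 23392 in monolayer culture (log2 ratio -0.78). Hypoxia response genes, listed because COX4I2 responds to oxygen, were higher in 11 and lower in 8 of 19, with a median of 0.14 that became -0.0047 on scaling to equal medians. COX4I2 itself belongs to this list and is counted as higher. At 1.5-fold 4 were higher, COX4I2 among them, and 2 lower. Of all measured genes, 52.8% were higher by any amount, 16.9% were higher at 1.5-fold and 13.5% lower at 1.5-fold. PFKFB4, a regulator of glycolysis, had 552 in spheroid culture and 245 in monolayer culture (2.25-fold higher), and EGLN3, an oxygen-sensing prolyl hydroxylase, had 632 in spheroid culture and 316 in monolayer culture. PFKFB4 had a log2 ratio of 0.21 and EGLN3 of 0.40 if floored at the 75th percentile. CA12, a carbonic anhydrase, was 1.63-fold higher, with all 7 of its probe sets higher. ADM, adrenomedullin, was 3.23-fold lower, at 2095 in spheroid culture and 6757 in monolayer culture. PDK1, which inhibits pyruvate dehydrogenase, was 2.04-fold lower on its brightest probe set. The geometric mean of its 3 sets, of which 2 were above the floor of an array, gave a log2 ratio of -0.31.

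**Figure D4:**
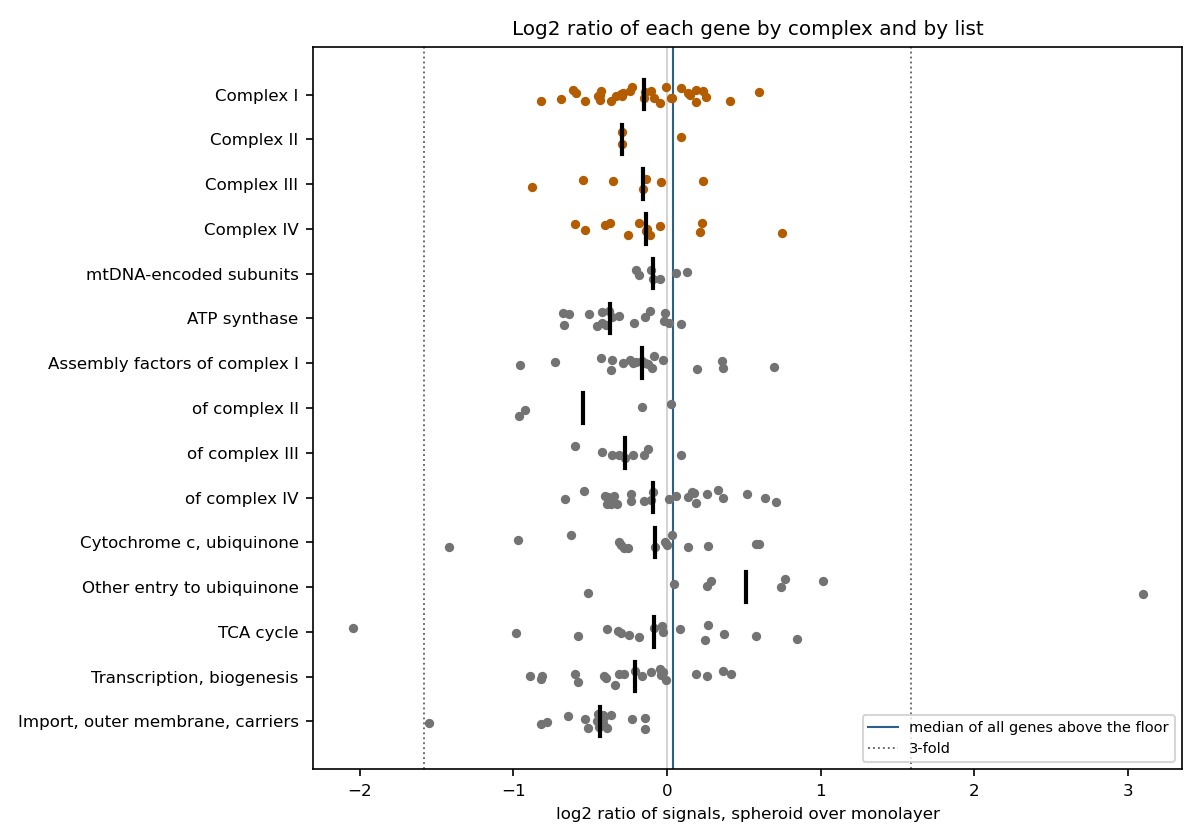
Log2 ratio, spheroid over monolayer, of each measured gene (points) for the 4 complexes and for the lists of genes that work with them, with the median of each row as a black bar, the median of all measured genes as a solid line and 3-fold as dotted lines. Subunit genes lie within 1 log2 unit of equal, the COX4I2 point in complex IV is a lower bound, and of the genes drawn, which leave out the hypoxia list, PRODH and IDH2 are past 3-fold.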

How the data were processed

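Total RNA of 1 A549 spheroid culture and 1 A549 monolayer culture had been hybridised to Affymetrix U133 Plus 2.0 arrays. The deposited values are signal intensities of 54675 probe sets, which the authors processed with MAS5 and GCOS as their notes name them, 1 value per probe set on a linear scale; both arrays have a 2% trimmed mean of 500.1, so no further scaling was applied. A probe set was used if the platform annotation gave it a single gene (41097 of 54675; 1801 had several), with symbols updated through RefSeq. Control probe sets (62) were left out. Signals below their array's median (the floor) were raised to it, and the probe set of highest mean log2 signal stood for a gene. A probe set below both floors therefore enters an average of probe sets at the ratio of the floors, 119 over 108. The log2 ratio is spheroid over monolayer. With 1 array per culture no test was run; genes were counted at fixed limits of 3-fold and 1.5-fold. An array gives no read depth, and the number of arrays limits the precision.

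The members and gene lists were chosen with earlier results of these data known. Values are given for the 8 highest and 8 lowest members, core, complex II and complex III subunits and isoform pairs, and in other lists for up to 3 genes per direction and any past 3-fold. Alternatives changed the floor, the scaling (each array over its own median, called scaling to equal medians, or quantile normalization), the probe set that stands for a gene and the limit. Protein sequences were not analysed here. The script was tested on simulated data for the recovery of changes past 3-fold only, not for shifts as small as those of the members. Python 3.11.15, numpy 2.4.6, pandas 2.3.3 and matplotlib 3.10.9 were used.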

Additional observations from a re-analysis of the deposited data

How the results depend on the processing

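The count of members past 3-fold was 0 in every setting of floor, scaling and probe set, and 8 members passed the 1.5-fold limit as reported, or 7 to 11 in other settings (10 lower and 1 higher on scaling to equal medians). The members' median log2 ratio ranged from -0.29 to -0.09 and lay below the median of all genes in each setting. On scaling to equal medians it was -0.29 for all members, -0.29 for complex I, -0.43 for complex II, -0.29 for complex III and -0.28 for complex IV, since this scaling lowers every ratio alike. For complex II it was -0.076 with the geometric mean of probe sets and -0.023 without the _s_at and _x_at sets. For complex III it was -0.35 with probe sets of several genes admitted. Without the _s_at and _x_at sets 24 members were lower, of 43 left to count. List medians changed sign as follows, and the cause was not tested. The hypoxia list went to -0.0047 on scaling to equal medians, and the mitochondrial DNA list to 0.0017 after quantile normalization. The NADH-oxidising module went to 0.012 and the complex IV assembly list to 0.056 with the geometric mean. That mean took all probe sets of a gene, also those below both floors, which enter above 0 because the spheroid floor is the higher. Without the _s_at and _x_at sets, values above 0 were found for mitochondrial DNA (0.024), complex IV assembly (0.056), the NADH-oxidising module (0.022), the ubiquinone-binding module (0.074) and cytochrome c and ubiquinone synthesis (0.022). Not all of the 56 members measured had a value in every setting. Without the _s_at and _x_at sets 43 had one, and NDUFB3, NDUFA13, COX8A and SDHA were among those without, so their sign was not checked there. Over the settings that gave a member a value, 41 members kept their sign and 15 did not. Of these 15, NDUFB7 (0.34), COX4I1 (0.20), COX5B (0.26), NDUFB4 (0.59), NDUFS1 (0.21), UQCR10 (0.65) and UQCRB (0.31) were above 0 without the _s_at and _x_at sets, and COX7B (0.28) and NDUFA10 (0.07) with the geometric mean. COX6B1 was at 0.02 after quantile normalization. On scaling to equal medians SDHC, NDUFAB1, NDUFB9, NDUFC1 and NDUFS4 were below 0, between -0.11 and -0.0055. No paired analysis was possible because each culture has 1 array.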
